A study of Schizosaccharomyces pombe with 3 samples.

Results

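The arrays labelled asf1-1 and alp13 deletion were set against each other directly: they are 2 of the 3 arrays of the series, chosen by their labels alone, and the third, from wild-type cells, entered none of the differences below. Each array is a tiling array of 60-base probes spaced 50 bp apart along parts of the fission yeast (Schizosaccharomyces pombe) genome, hybridised with chromatin immunoprecipitated for histone H3 acetylated at lysine 9 (H3K9ac, labelled with Cy5) together with whole-cell extract DNA of the same strain (labelled with Cy3). The strains carry a deletion of alp13 (alp13∆) and the allele asf1-1, respectively. Both cultures were growing exponentially in rich medium (YEA) at 30 °C and were cross-linked with paraformaldehyde (3%, 18 °C), and the wild-type culture shared these conditions. Neither the lesion in asf1-1 nor the rest of either genotype is given in the labels, and with 1 array a strain the differences have no replicate check, so no p-value is attached to any of them. The alp13 gene (SPAC23H4.12, chromosome I) and the asf1 gene (SPCC663.05c, chromosome III) have 0 placed probes on the array, so the genotypes could not be checked in these data and rest on the labels. The authors' deposited value table did not settle them either: its alp13∆ column correlated with the asf1-1 array (r = 0.69) more closely than with the alp13∆ array (r = 0.53), and its asf1-1 column correlated with the asf1-1 array at r = -0.58. Every direction below therefore holds for the arrays as labelled.

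Alp13 is a chromodomain protein of the MRG family and belongs to a complex of the histone deacetylase Clr6, a class of complex known for removing acetylation from the transcribed parts of genes. Asf1 is a chaperone of histones H3 and H4 that hands them to the HIRA complex for assembly into nucleosomes outside replication. H3K9ac itself is deposited largely by the SAGA co-activator complex and is typically densest at the start of active genes. The comparison of the strains therefore addresses whether H3K9ac is distributed in the same way where a deacetylase complex is incomplete and where a chaperone is altered.

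For every probe the log2 ratio of ChIP over whole-cell extract was centred on the median of its array, and the alp13∆ value was subtracted from the asf1-1 value. A difference of 1 is 2-fold, a positive difference means a higher relative level in asf1-1, and every level is relative to the rest of the same array, not an absolute amount of acetylation. Of 43993 probes, 43975 were kept after spots marked as outliers on either array were left out. Across them the arrays correlated with r = 0.71, and the difference had a standard deviation of 0.71. A stretch of 240 probes that the array carries as near-duplicates at a second position gave a standard deviation of 0.10 for the difference at a single probe, so the spread across the genome was 6.92 times the scatter between copies of a probe on the same arrays. This scatter covers the hybridisation only and holds nothing of the variation between cultures or immunoprecipitations. The difference reached 1.5-fold in the asf1-1 direction at 26.4% of probes and in the alp13∆ direction at 17.1%.

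The choice of the zero point moves every signed value by the same amount. Without centring, all differences fell by 0.24, because the median log2 ratio before centring was 0.17 on the asf1-1 array and 0.41 on the alp13∆ array; centred on intergenic probes instead of all probes, the median over genes went from 0.08 to -0.71. Differences between classes of probes, or between a gene and its own promoter, do not depend on this choice, and the account therefore starts with them.

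The arrays differed in the order of H3K9ac between upstream probes and the middle of genes. In asf1-1 the median log2 ratio was 0.22 over the 500 bp upstream of protein-coding genes and -0.06 over the middle of 3 equal parts of genes. In alp13∆ the order was the other way round, with -0.55 upstream and 0.31 over the middle part. Upstream probes were thus 0.74 higher in asf1-1 and middle-part probes 0.29 lower, which gave a change of -1.03 from upstream to middle. The first part of genes lay between them, at a median difference of 0.24, and the last part at -0.16. Upstream, 63.9% of 5364 probes were at least 1.5-fold higher in asf1-1 and 0.634% were that much lower; in the middle part 7.70% of 10781 probes were higher and 32.9% lower. As context, the wild-type array read 0.58 upstream and -0.26 in the middle, so on this contrast asf1-1 had the wild-type order with a smaller step and alp13∆ the reverse. That did not hold for all gene bodies minus all intergenic probes, which include centromere 2 and the chromosome ends. There asf1-1 read 0.09, alp13∆ 1.04 and wild type -0.40, so asf1-1 had the sign of alp13∆.

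Part of this contrast was carried by the whole-cell extract channel. With the Cy5 signal alone the change from upstream to middle was -0.71, and with the Cy3 signal alone it was 0.32, that is, extract DNA was lower in asf1-1 upstream (-0.21) and higher in the middle (0.11). Upstream probes are poorer in G and C than middle-part probes, with medians of 31.7% and 38.3% GC. Within bins of probe GC content, an alternative added after the data were seen, the change from upstream to middle ran from -0.81 at 20 to 25% GC to -1.06 at 40 to 45% GC, the same sign in all 5 bins.

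Aligned on their starts and ends, the 532 genes of 1500 bp or more showed where the order turned. The asf1-1 median was flat upstream, 0.29 at 650 bp and 0.30 at 50 bp before the start, peaked at 0.34 at 150 bp after it and declined to -0.14 at 1450 bp. The alp13∆ median was lowest, -0.39, at 150 bp before the start and rose through the gene start to 0.35 at 1150 bp inside it. The median difference changed sign between 550 bp (0.07) and 650 bp (-0.03) inside the gene. Towards the gene end it turned back, from -0.34 at 750 bp before the end to 0.13 at 50 bp after it.

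**Figure D1:**
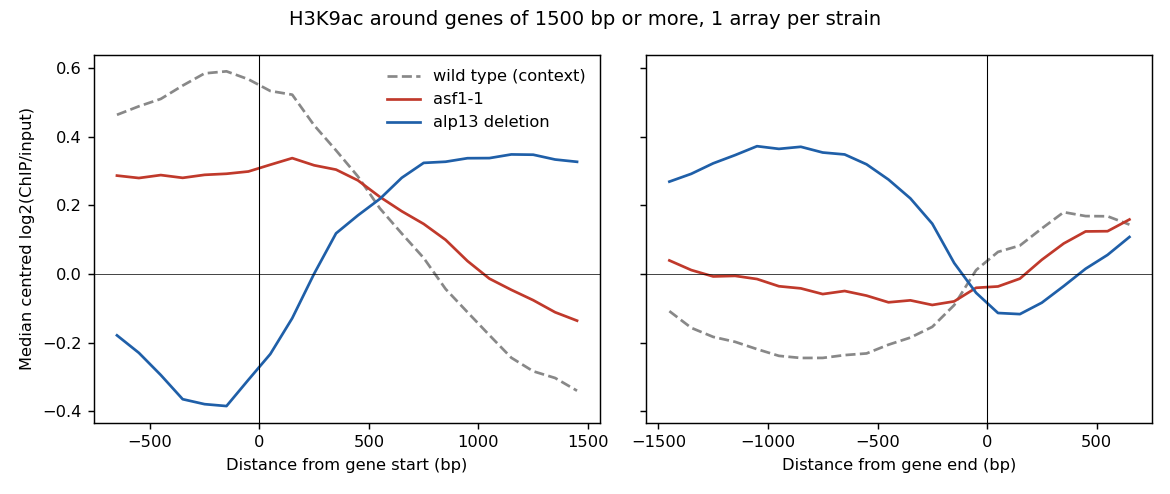
Median centred log2(ChIP/input) in bins of 100 bp against distance from the start (left) and the end (right) of 532 protein-coding genes of 1500 bp or more, for the asf1-1 (red), alp13 deletion (blue) and wild-type (grey, dashed) arrays, 1 array per strain and no error bars. The red and blue lines cross inside the gene between 550 and 650 bp from the start, with red above blue upstream and blue above red inside.

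The same reversal was counted gene by gene, within each array. For 880 genes the middle part could be set against the gene's own promoter (250 bp before to 50 bp after the annotated start). The middle part was the higher of the pair in 335 genes (38.1%) on the asf1-1 array and in 728 genes (82.7%) on the alp13∆ array. The median of middle minus promoter was -0.16 in asf1-1 and 0.51 in alp13∆. In 797 genes (90.6%) this value was larger in alp13∆ than in asf1-1. Among the 222 longest of these genes the share reached 99.5%, with medians of -0.52 in asf1-1 and 0.73 in alp13∆, whereas among the 213 shortest it was 73.2%, with medians of 0.02 and 0.23. These counts use only differences within an array and are untouched by its centring.

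**Figure D2:**
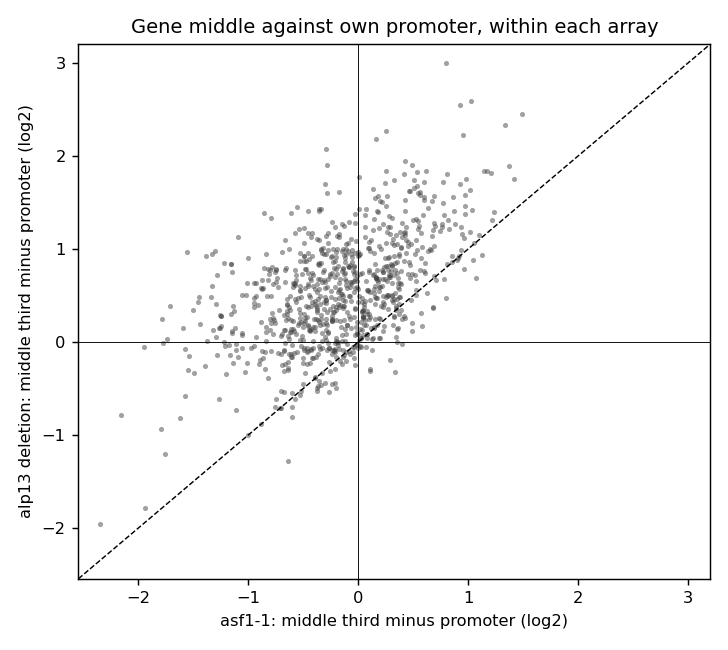
Each point is 1 of 880 genes, with the log2 ratio of its middle part minus that of its own promoter on the asf1-1 array (x axis) and on the alp13 deletion array (y axis). In 797 genes the point lies above the dashed line of equality, and the cloud is centred left of 0 on the x axis and above 0 on the y axis.

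Between genes, the difference followed the orientation of the flanking genes. In 216 gaps between divergent genes, which hold the promoters of both neighbours, the median was 0.21 in asf1-1 and -0.71 in alp13∆, a difference of 0.91. In 339 gaps between genes in tandem the medians were 0.07 and -0.60, a difference of 0.66. In 86 convergent gaps, which hold no promoter of either neighbour, the medians were -0.29 and -0.57, a difference of 0.36. The Cy3 channel alone differed by -0.24, -0.21 and -0.21 in these classes, so it did not follow their order. Gap size did: the divergent, tandem and convergent gaps held 4329, 3510 and 513 probes, so divergent gaps were the longest on average and convergent gaps the shortest. The part of gap length in these values was not tested.

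Upstream windows were also summarised per gene. Of 892 promoters with at least 4 probes, 509 were at least 1.5-fold higher in asf1-1 (57.1%) and 7 were at least 1.5-fold lower (0.785%). The median promoter read 0.30 in asf1-1 and -0.37 in alp13∆. Their difference had a median of 0.65, to which Cy5 alone gave 0.42 and Cy3 alone -0.20.

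The sequences of the most extreme promoters are given here because they are the places where the strains differ most at gene starts. Each line holds the 250 bases before the annotated gene start, 5′ to 3′ on the gene's strand, from the RefSeq genome ASM294v3, and capitals mark matches to TATAAA on either strand or a run of 10 A or 10 T. The first 4 are the promoters with the highest difference and the last 3 are among the 4 lowest.
SPBPB2B2.16c: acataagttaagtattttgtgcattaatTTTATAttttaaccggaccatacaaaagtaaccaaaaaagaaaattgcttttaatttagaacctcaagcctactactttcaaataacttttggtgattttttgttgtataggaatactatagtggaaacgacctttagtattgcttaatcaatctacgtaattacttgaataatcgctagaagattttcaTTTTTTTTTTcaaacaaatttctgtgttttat
hbs1: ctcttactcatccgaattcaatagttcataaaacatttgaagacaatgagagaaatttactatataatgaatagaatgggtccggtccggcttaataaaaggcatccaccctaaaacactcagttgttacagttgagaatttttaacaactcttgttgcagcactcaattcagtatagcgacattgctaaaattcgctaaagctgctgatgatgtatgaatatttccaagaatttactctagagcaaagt
SPBC365.16: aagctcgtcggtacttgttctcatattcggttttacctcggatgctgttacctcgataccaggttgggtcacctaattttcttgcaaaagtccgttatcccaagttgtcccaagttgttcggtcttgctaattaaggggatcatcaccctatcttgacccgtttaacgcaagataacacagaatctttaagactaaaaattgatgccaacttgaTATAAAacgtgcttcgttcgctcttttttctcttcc
tim18: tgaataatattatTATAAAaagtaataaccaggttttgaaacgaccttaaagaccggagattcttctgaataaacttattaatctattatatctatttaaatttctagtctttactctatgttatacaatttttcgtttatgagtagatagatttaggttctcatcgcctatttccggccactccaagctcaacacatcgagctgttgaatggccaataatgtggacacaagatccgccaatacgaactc
lsd90: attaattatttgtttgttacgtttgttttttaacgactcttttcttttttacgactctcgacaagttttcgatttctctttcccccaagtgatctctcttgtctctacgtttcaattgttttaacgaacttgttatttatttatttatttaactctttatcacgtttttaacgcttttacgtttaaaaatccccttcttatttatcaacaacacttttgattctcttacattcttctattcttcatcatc
pat1: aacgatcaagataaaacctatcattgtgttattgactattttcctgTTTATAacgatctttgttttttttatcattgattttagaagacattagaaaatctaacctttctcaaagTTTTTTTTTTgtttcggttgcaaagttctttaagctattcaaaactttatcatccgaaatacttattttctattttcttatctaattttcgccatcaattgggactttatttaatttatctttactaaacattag
ist2: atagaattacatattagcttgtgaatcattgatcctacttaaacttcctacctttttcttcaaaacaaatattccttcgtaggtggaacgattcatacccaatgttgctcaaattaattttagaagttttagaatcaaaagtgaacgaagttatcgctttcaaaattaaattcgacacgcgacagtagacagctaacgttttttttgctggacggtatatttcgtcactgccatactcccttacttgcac

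These windows lie at chrII:4499395-4499644 (minus strand), chrII:2594095-2594344 (plus), chrII:2529417-2529666 (plus), chrII:2035810-2036059 (plus), chrII:1950256-1950505 (minus), chrII:1682611-1682860 (plus) and chrII:1432907-1433156 (minus), in the order given. The promoter of SPBPB2B2.16c, a gene near the right end of chromosome II, read 0.36 in asf1-1 and -1.42 in alp13∆, the largest promoter difference at 1.79. Here asf1-1 also exceeded the wild-type array, at -1.14. This promoter lies in the inner part of that end, where 514 of 599 probes have exact copies in the reference. Its values may therefore not belong to this place alone. The promoter of hbs1, which encodes a ribosome rescue factor, read 0.31 and -1.42, a difference of 1.73. In hbs1 more of the difference lay in the extract channel (-0.95 by Cy3 alone) than in the ChIP channel (0.75 by Cy5 alone). The promoter of SPBC365.16 read 1.45 and -0.21, and that of tim18, named for an import complex of the mitochondrial inner membrane in budding yeast, read 0.51 and -1.02.

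At the other end, the promoter of lsd90 read 0.13 in asf1-1 and 1.09 in alp13∆, a difference of -0.96. That of pat1, the kinase that holds back meiosis, read -0.93 and -0.01, a difference of -0.92. The promoter of meu18 read -0.78 and 0.02, and its window overlaps the upstream gene ade7. The promoter of ist2 read 0.28 and 1.01. Of these, lsd90, pat1 and ist2 return below among the genes with the lowest bodies.

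The promoters were also grouped by short motifs, to be read against the 57.1% of all promoters that were at least 1.5-fold higher in asf1-1. TATAAA occurred in 42.4% of the 892 windows of 250 bp, with a median difference of 0.68 where present and 0.63 where absent, and 59.5% of those with it were higher. CAGTCAC, the core of the HomolD box of ribosomal protein promoters, occurred in 38 windows (4.26%), with medians of 0.88 and 0.64, and 29 of the 38 promoters (76.3%) were higher. CCCTACC, the core of the HomolE box, occurred in 2.24% (0.70 and 0.65), the CRE-like TGACGT in 4.82% (0.59 and 0.65), the E-box CACGTG in 1.35% (0.72 and 0.65), and a run of 10 A or 10 T in 5.72% (0.69 and 0.65). All were sought on both strands, and no match is more than a description of these letters.

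Per gene, the mean difference over the probes between the annotated ends was taken for 893 protein-coding genes with at least 3 probes, of which 396 overlap another measured gene and share probes with it. Of them 145 were at least 1.5-fold higher in asf1-1 (16.2%) and 78 at least 1.5-fold lower (8.73%), so that 65.0% of the calls were higher. Without centring the numbers were 59 higher and 172 lower (25.5% higher), and with centring on intergenic probes they were 0 and 543, so which direction holds more genes depends on the zero point; with Cy5 alone they were 66 and 45. At 2-fold 25 genes (2.80%) were higher and 16 (1.79%) lower. The call nearest to the threshold was SPBC685.08 at 0.59 on the higher side, next to rib4 at 0.58 outside it, and ppb1 at -0.59 on the lower side, next to SPBC83.16c at -0.58 outside it.

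As sets, the called genes had medians on opposite sides of 0, the array median, in the strains. The 145 genes higher in asf1-1 had a median of 0.50 in asf1-1 and -0.33 in alp13∆. Of them 69 lay on opposite sides, 43 above the array median in both strains and 33 below it in both. The 78 genes lower in asf1-1 had medians of -0.45 and 0.35, and 60 of them lay on opposite sides. On the wild-type array the same sets read 0.69 and -0.51, each nearer to asf1-1 than to alp13∆. Every probe had a difference on the same side of 0 in 142 of the 145 higher genes and in 15 of the 78 lower genes, which are longer (medians of 913 and 3115 bp). Among all 893 genes this held for 285. The sets were chosen by the mean over these same probes, and probes 50 bp apart share their difference (r = 0.97). The counts are therefore a description and add no support to the calls.

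The median length of all genes measured was 1715 bp, so the sets lay on either side of it. Among the 224 shortest genes, up to 1201 bp, 111 were higher and 0 lower. Among the 223 longest, from 2455 bp, 2 were higher and 52 lower. Over the genes, length and difference had a Spearman rho of -0.67, a description over genes that share 2 arrays and in part their probes. Length went with the level in opposite ways on the arrays, at rho -0.23 in asf1-1 and 0.31 in alp13∆. The difference was shared between neighbouring probes, with r = 0.80 at a distance of 500 bp, 0.52 at 1000 bp and 0.13 at 2000 bp on chromosome II. The DNA had been sheared to fragments of 500 to 1000 bp, whose part in these values was not tested. Genes with introns had a median difference of 0.09 and genes without of 0.05.

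**Figure D3:**
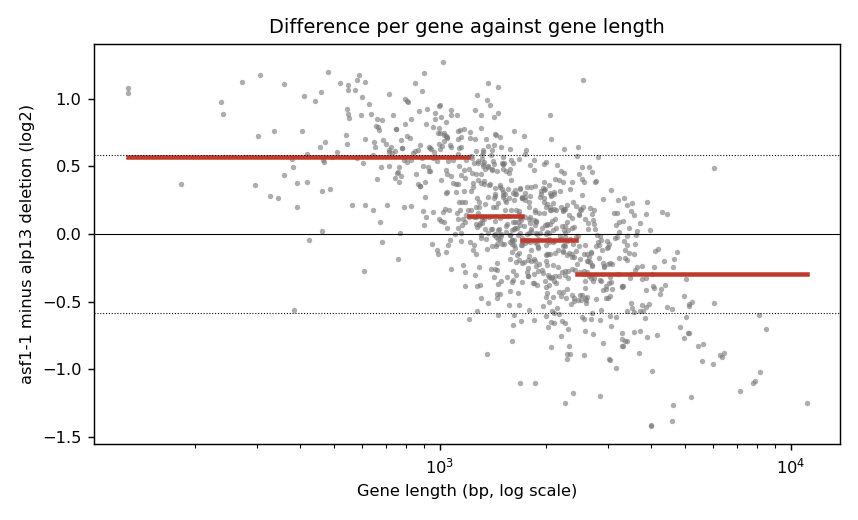
Mean difference in log2 ratio, asf1-1 minus alp13 deletion (y axis), against gene length in bp on a log axis for 893 genes, with dotted lines at 1.5-fold and red bars at the median of 4 groups of genes of rising length. The medians step down from 0.57 to 0.13, -0.04 and -0.30.

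The genes with the highest difference were short and came from several functions. The mitochondrial ribosomal protein gene mrpl39 (SPBC4F6.08c, chrII:2700735-2701751) read 0.94 in asf1-1 and -0.33 in alp13∆, a difference of 1.27 with a standard deviation of 0.22 over its 21 probes. The gene rpp202 for an acidic protein of the large ribosomal subunit (SPBC23G7.15c, chrII:2127990-2128467) read 0.79 and -0.41, a difference of 1.20, and overlaps SPBC23G7.14. The gene rpl2502, for another protein of that subunit (SPBC4F6.04, chrII:2690821-2691722), read 0.02 and -1.18, a difference of 1.19. This gene lay at the array median in asf1-1 and well under it in alp13∆.

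Another large-subunit gene, rpl2701 (SPBC685.07c), read -0.28 and -1.40, below the median of both arrays and lower in alp13∆. The gene gpi15 (SPBC685.05), which acts in the first step of GPI anchor synthesis and lies near rpl2701, read 0.48 and -0.64. The gene tim18 (SPBP23A10.16) read 0.24 and -0.87, so its body followed its promoter. The genes SPBC336.16, SPBC365.16 and SPBC3H7.08c, for which no name is given in the annotation used here, differed by 1.14, 1.14 and 1.11. SPBC336.16 overlaps SPBC18A7.02c, and SPBC3H7.08c overlaps ser2. Of these SPBC365.16 is an exception in length, with 2548 bp and 51 probes: the difference was 1.62 in the first of 5 equal parts and 0.71 in the fourth. Its first part belongs to a run of 4460 bp (chrII:2526461-2530920) in which every probe was at least 2-fold higher in asf1-1, with means of 1.20 in asf1-1 and -0.35 in alp13∆. The tenth gene, mat1-Mc, which encodes a mating-type regulator, read 0.30 and -0.80, and all 11 of its probes have exact copies elsewhere in the reference, so it cannot be told apart from mat3-Mc.

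The genes with the lowest difference were mostly long. The gene osh2 for an oxysterol-binding protein (SPBC2F12.05c, chrII:1728773-1733339) read -0.80 in asf1-1 and 0.59 in alp13∆, a difference of -1.39 over 91 probes, and overlaps rpl1701. The largest subunit of RNA polymerase III, rpc1 (SPBC651.08c, chrII:1249831-1254446), read -0.94 and 0.33, a difference of -1.27, and overlaps SPBC651.07. The gene tra1, for the large scaffold subunit of SAGA (SPBP16F5.03c, chrII:1894350-1905418), read -0.84 and 0.41, a difference of -1.25. It overlaps mcs2. It is the longest gene measured, with 221 probes, and carried the longest run of adjacent probes at least 2-fold lower in asf1-1, 6360 bp.

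The course along these genes was not flat. In osh2 the difference was -0.29 in the first of 5 equal parts, -2.09 in the third and -1.12 in the last. In mor2, which acts in cell shape (SPBP19A11.04c), it was -0.29 in the first part and -1.58 in the fourth. In tra1 it was -0.74 in the first part and -1.71 in the fourth, where asf1-1 read -1.30 and alp13∆ 0.41. In each of these 3 genes the interior was depleted in asf1-1 relative to the array and raised in alp13∆.

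The gene lsd90 (SPBC16E9.16c, chrII:1947985-1950255) behaved otherwise: it read -0.17 in asf1-1 and 1.08 in alp13∆, with a difference between -1.05 and -1.37 in all 5 parts and, as given above, -0.96 at its promoter. Its probes had the richest base composition of the 20 genes, 53.4% GC. The ubiquitin ligase gene rkr1 (SPBC21D10.09c) read -0.97 and 0.23, and pho7, for a regulator of phosphate starvation genes (SPBC27B12.11c), -0.46 and 0.74. The gene ist2 (SPBC691.05c) read -0.21 and 0.97, a difference of -1.18, and overlaps mss116. It too was lower from its first part (-0.71), and at its promoter (-0.73). The gene prp17, a splicing factor (SPBC6B1.10), is annotated over 7802 bp and overlaps fab1, so its -1.11 cannot be told apart from the -1.09 of fab1. The meiosis inhibitor pat1 (SPBC19C2.05) read -0.47 and 0.63, a difference of -1.10 over 34 probes, and is the shortest of these 10 genes. Like lsd90, pat1 was lower throughout, between -0.71 and -1.32 in all 5 parts and by -0.92 at its promoter.

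Runs of at least 20 adjacent probes past 2-fold showed the same division. Of 48 runs lower in asf1-1, all 48 lay mostly within protein-coding genes, and of 51 runs higher in asf1-1, 6 did. These counts are to be read against all placed probes kept, of which 32059 lay inside protein-coding genes and 10895 outside. The longest lower runs after that of tra1 lay in mor2 (5060 bp), in the overlap of fab1 and prp17 (4610 bp) and in bgs1, for a glucan synthase of the cell wall (3960 bp). The longest higher run within chromosome II without a protein-coding gene spanned chrII:1147411-1151170, with means of 0.37 in asf1-1 and -1.15 in alp13∆.

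The genes whose products act on histones form short lists, to be read against 16.2% of all genes higher and 8.73% lower. In this and later lists, pst3, rpb4, tfb5, sme1, cwf7, rps902, tsr2, fib1, mrps17, tif512 and gpx1 overlap another measured gene. The same holds for mei4, spo5, mug176, cdc6, cdc10, his7 and sfr1, and for some members within 1.5-fold. Of 3 measured members of the Clr6 complexes, pst3 read -0.37 in asf1-1 and 0.58 in alp13∆, and pst1 read -0.21 and 0.52. Both encode Sin3-family scaffolds and were lower in asf1-1, at -0.94 and -0.73, whereas png2, for a PHD-finger protein, differed by 0.36. With tra1, pst3 and pst1 are among the 223 longest genes (from 2455 bp), of which 52 were lower and 2 higher. Of 6 genes for subunits of histone acetyltransferase complexes, sgf29 was higher (0.87 and -0.01, a difference of 0.88), tra1 was lower, and spt8, taf10, bdc1 and ngg1 lay between -0.32 and 0.51. The chaperone genes slm9, pcf1 and nap2 differed by -0.47, -0.36 and 0.58, all within 1.5-fold. The silencing genes clr1 and tas3 differed by -0.38 and -0.12. Of 6 genes for transcription elongation and the Set2 pathway, prf1, for a subunit of the Paf1 system, was lower at -0.61, and the list median was -0.30.

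Of 8 genes for RNA polymerase II and its general factors, the small subunit genes rpb4 (0.95) and rpb8 (0.88) and tfb5 (0.79), for a subunit of TFIIH, were higher in asf1-1. The gene for the largest subunit, rpb1, read -0.79 in asf1-1 and 0.02 in alp13∆ and was lower at -0.81. By length rpb1 is among the 223 longest genes, of which 52 were lower. The genes rpb4, rpb8 and tfb5 are among the 224 shortest (up to 1201 bp), of which 111 were higher. The part of length in these lists was not tested. Of 22 splicing factor genes, sme1 (0.72) and cwf7 (0.85) were higher and prp17 and cwf22 (-0.81) lower, with a median of 0.15, so the count of higher members lay below the share over all genes (16.2%) and that of lower members near it (8.73%).

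Of 25 ribosomal protein genes measured, 20 were at least 1.5-fold higher in asf1-1, where 16.2% of all genes were, and 0 were lower, with a median difference of 0.83 and a range from -0.04 (rpl4302) to 1.20 (rpp202). The 5 within 1.5-fold were rpl4302, rpl35A02, rpl1701, rps2402 and rps3002. The list median was -0.16 in asf1-1 and -0.96 in alp13∆. All 25 lay below the array median in alp13∆, and 11 of them lay above it in asf1-1. Length goes with this list too: its median is 637 bp. Among the shortest genes, up to 1201 bp, 18 of 23 ribosomal protein genes (78.3%) were higher, with a median of 0.81, and 93 of the 201 other genes (46.3%), with a median of 0.55. Without centring 13 members were higher, and with centring on intergenic probes 0 were.

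In other lists of protein synthesis few members passed 1.5-fold, to be read against 16.2% of all genes higher. Of 13 ribosome biogenesis genes, tsr2 (0.78), fib1 for the methyltransferase fibrillarin (0.78) and rrs1 (0.88) were higher, with a list median of -0.06. By its symbol rrs1 stands also among 15 tRNA modification and synthetase genes, where it was the member past 1.5-fold and the median was 0.23. Of 6 translation factor genes, tif512 was higher at 0.70, and of 3 proteasome genes, rpt6, for an ATPase of the regulatory particle, at 0.65. Of 9 mitochondrial ribosomal protein genes, mrpl39 and mrps17 (0.64) were higher, with a median of 0.18, well under that of the cytosolic list.

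Of 11 genes of respiration measured, 6 were higher in asf1-1 and 0 lower, with a median of 0.63 and cox10 lowest at -0.03, where 16.2% of all genes were higher. Among the shortest genes, up to 1201 bp, all 5 of these genes were higher and 106 of the 219 others (48.4%). The 6 higher genes were sdh7 (0.63), atp7 (0.69), atp14 (0.72) and atp16 (0.85) for ATP synthase subunits, cox7 (0.76) and qcr10 (0.88). Of them sdh7, for a factor named for succinate dehydrogenase, is 1583 bp long and overlaps pkr1. Among the histone genes hht2, for histone H3, read -0.63 in asf1-1 and -1.30 in alp13∆ (0.66), and hhf2, for histone H4, 0.05 and -0.95 (1.00). The H2A.Z gene pht1 differed by 0.35. None of 4 glycolysis genes passed 1.5-fold, with tdh1 at -0.47, pfk1 at 0.09, fba1 at 0.40 and eno101 at 0.47. Of 6 stress genes, gpx1, for a glutathione peroxidase, was higher at 0.65, and none of 7 chaperone genes passed, from cct8 at -0.54 through mas5 at 0.24 to hsp16 at 0.45.

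Of 7 meiotic genes measured, the transcription factor gene mei4 (-0.61 in asf1-1 and 0.15 in alp13∆, a difference of -0.75), spo5 (-0.66) and the recombination gene rec6 (-0.63) were lower and 0 were higher, with a median of -0.53, where 8.73% of all genes were lower. Among the other 4, spo14 differed by 0.09 and rec15 by 0.51. Of 9 genes named mug for their induction in meiosis, mug93 (-0.89) and mug176 (-0.64) were lower and mug20 (0.61) higher. Of 12 genes for mating and nitrogen starvation, the 4 past 1.5-fold were the cassette genes mat1-Mc, mat1-Mi, mat3-Mc and mat3-Mi, from 1.05 to 1.10, and they share their sequence in pairs. The other 8 ran from -0.50 (fnx2) to 0.40 (gpa1). Of 12 cell cycle genes, cdc6, for the catalytic subunit of DNA polymerase delta (-0.69), and cdc10, for a subunit of the MBF transcription factor (-0.68), were lower, with a median of -0.26. Both cdc6 and cdc10 are among the 223 longest genes, of which 52 were lower.

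In the other lists few members passed. These were sre1 (-0.78), the sterol-responsive transcription factor gene, of 7 sterol and lipid genes, fab1 of 7 vacuolar sorting genes, and pho7 of 4 genes for iron, siderophores and phosphate. Each of sre1, fab1 and pho7 is among the 223 longest genes, of which 52 were lower. By its symbol lsd1 (-0.39) was counted among the 7 sterol and lipid genes, and it stands also among the genes for transcription elongation and the Set2 pathway. Of 12 amino acid and nucleotide synthesis genes, his5 (0.92) and his2 (0.73) were higher and his7 (-0.60) lower, so genes of the histidine pathway lay on both sides. Of 15 DNA repair genes, sfr1, for a recombination mediator, was higher at 0.87 and apn2 came nearest below at -0.58.

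The retrotransposons Tf2-9 and Tf2-10 had the lowest differences of all, -1.42 each. They read -0.17 and -0.18 in asf1-1 and 1.25 and 1.23 in alp13∆. Here the channels disagreed in size: the ChIP channel alone gave a list median of -0.46 and the extract channel alone 0.99, so the extract signal, higher in asf1-1, differed more than the ChIP signal. Tf2 elements occur in nearly identical copies that the probes cannot tell apart, and the number of copies in each strain was not tested.

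**Figure D4:**
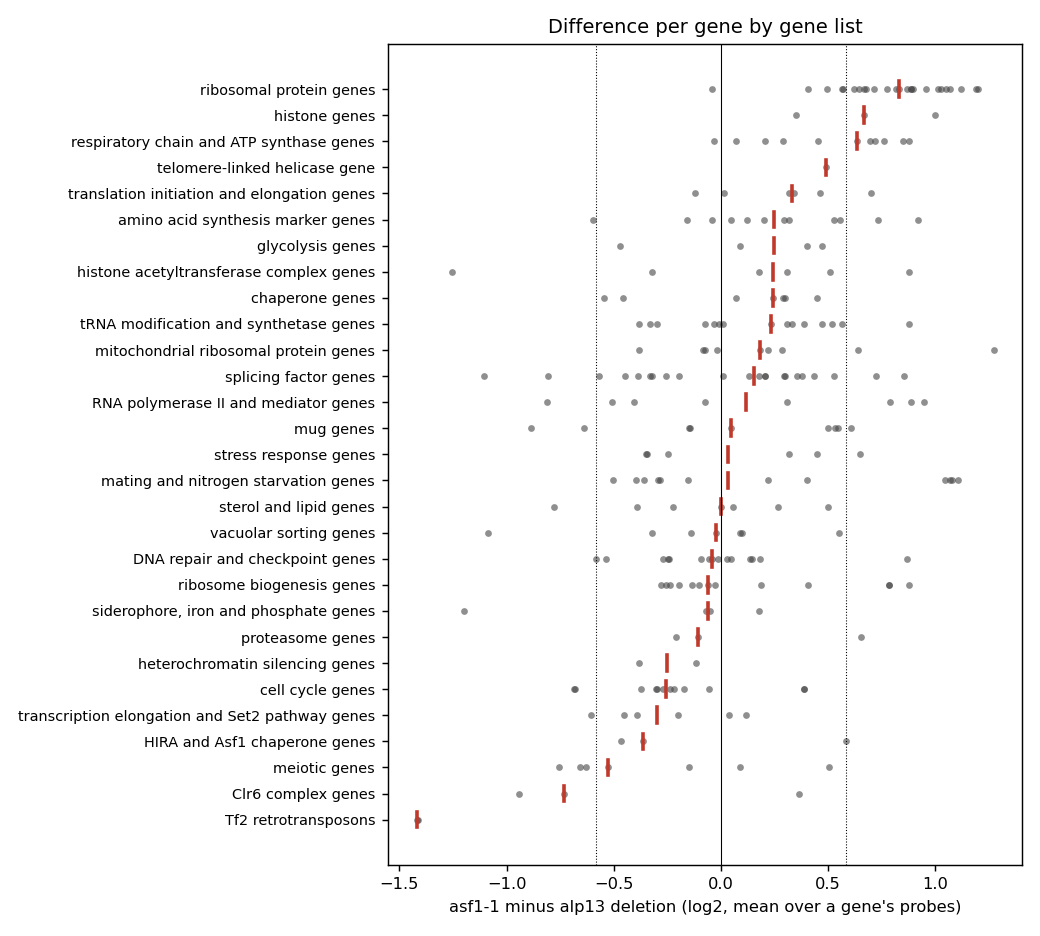
Mean difference in log2 ratio, asf1-1 minus alp13 deletion (x axis), for each measured member (grey points) of 29 gene lists (rows), with the list median as a red bar and dotted lines at 1.5-fold. Ribosomal protein genes lie furthest to the right among the larger lists, with a median of 0.83, and the Tf2 elements lie at -1.42.

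In the regions with few or no protein-coding genes, the median difference with centring on all probes was positive everywhere but in the central domain of centromere 2. It was highest at the left end of chromosome III, where the reference carries copies of the ribosomal DNA (chrIII:1-23130). Over its 459 probes the median was 0.07 in asf1-1 and -0.97 in alp13∆, a difference of 1.28, and 99.1% of probes were higher in asf1-1. Between the annotated rRNA genes, asf1-1 read 0.47 and alp13∆ -1.51, a difference of 2.01, and all 213 probes were at least 1.5-fold higher. Inside the annotated rRNA genes the medians were -0.07 and -0.55, a difference of 0.76. In the channels taken singly, the ChIP signal was 1.78 higher between the rRNA genes and 1.49 higher inside them, and the extract signal differed by -0.13 and 0.84. The repeats share their probes (458 of 459 have exact copies in the reference), and the placement of this end was less sure than that of chromosome II, at r = 0.38 against 0.28 for the next best offset.

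Just past the last annotated rRNA, the first 2 kb read -0.15 in asf1-1 and -2.15 in alp13∆, a difference of 2.36. In bins at 250, 750 and 1250 bp past it, asf1-1 read -0.68, 0.23 and 0.78 and alp13∆ -2.90, -2.30 and -1.69. From 1750 to 2750 bp of the rDNA end the values rose alike, from -0.58 to 1.36 and from -2.91 to -1.04. Whether these first 2 kb still belong to the repeat was not tested. Further on the difference varied, with 1.12 at 6 to 8 kb past that rRNA, 0.30 at 14 to 16 kb and -0.30 at 24 to 26 kb. Over all 537 probes of this stretch the median was 0.64, and 177 of them have exact copies in the reference.

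The ratio over centromere 2 differed little at this zero point, but the extract signal did not everywhere. At 20 to 22 kb and 34 to 36 kb from the rpb1 side, extract alone was 1.83 and 1.69 higher in asf1-1. The ratio differed there by -0.20 and 0.02. Over the whole centromere, Cy5 alone gave 0.29 and Cy3 alone 0.10, and 763 of its probes have exact copies in the reference. Over its 1020 probes (chrII:1596745-1648231, between rpb1 and yox1) both strains were far below their array medians, at -2.88 in asf1-1 and -3.05 in alp13∆, a difference of 0.22. The outer arms, which carry the dg and dh repeats, differed by 0.21 on the left and 0.24 on the right. The central domain, where the centromeric histone variant resides, differed by -0.14, and by -1.27 when background was corrected with normexp in place of the scanner's subtraction. The tRNA clusters at the borders differed by 0.35 and 0.37. The whole centromere differed by -0.02 without centring, by -0.02 with both arrays brought to the same spread, and by -0.57 with centring on intergenic probes.

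The stretch around the mat3 cassette, the extra contig and the right end of chromosome II had higher median differences than centromere 2. A change of zero point shifts all values alike, so it cannot alter this order. The sizes do depend on the zero point: with centring on intergenic probes these stretches differed by 0.005, -0.22 and -0.20. With both arrays at the same spread they differed by 0.56, 0.32 and 0.45. With centring on all probes, the stretch around the mat3 cassette (chrII:2128468-2138318) read -2.29 in asf1-1 and -2.99 in alp13∆, a difference of 0.79, and 100% of its 196 probes were higher in asf1-1. It was not low throughout: asf1-1 read 0.06 at 4 to 6 kb and -0.19 at 8 to 10 kb, and alp13∆ -1.03 and -1.54. Of its probes, 104 have exact copies in the reference. The bin at 4 to 6 kb holds mat3-Mi and mat3-Mc, whose 3 and 11 probes all have exact copies. The values of that bin therefore cannot be credited to this cassette alone. The extra contig of the array past its first 12 kb, which could not be placed on the reference, read -2.57 and -3.03, a difference of 0.57. This stretch was mixed: its bins from 0 to 8 kb read between 0.02 and 0.38 in asf1-1 and between -0.90 and 0.58 in alp13∆. At 2 to 4 kb the difference was -0.51. The right end of chromosome II read -1.38 and -2.0, a difference of 0.59, and 790 of its 998 probes have exact copies in the reference. Within it, the outermost 20 kb differed by 0.50 and the inner part by 0.67.

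The right end was not even. Between 8 and 12 kb from its first probe, around SPBPB2B2.16c, asf1-1 read -0.15 and -0.21 in successive bins of 2 kb and alp13∆ -1.31 and -1.42. At 30 to 32 kb the medians were -1.92 and -3.37, a difference of 1.45. In the last 2 kb they were -2.84 and -3.0, a difference of 0.17. The telomere-linked helicase gene tlh2, in this end, read -2.44 and -2.93, a difference of 0.49. Of its 120 probes 111 have exact copies elsewhere in the reference, so the value cannot be credited to this end alone. Around 14 dispersed tRNA genes, within 250 bp, the medians were -0.89 and -1.47, a difference of 0.76, close to that of upstream probes.

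**Figure D5:**
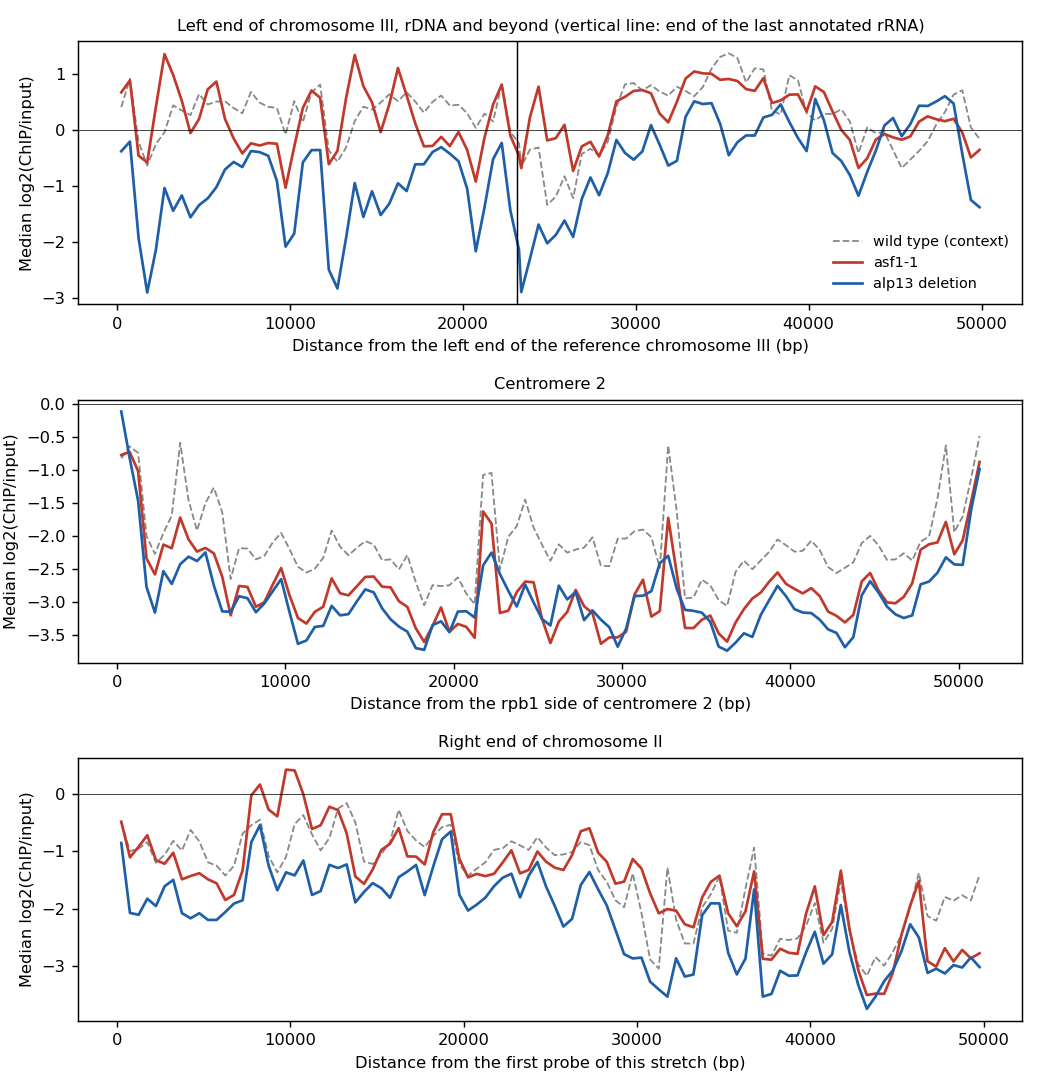
Median log2(ChIP/input) in bins of 500 bp against distance for the left end of chromosome III (top, with the end of the last annotated rRNA as a vertical line), centromere 2 (middle) and the right end of chromosome II (bottom), for the asf1-1 (red), alp13 deletion (blue) and wild-type (grey, dashed) arrays. Red lies above blue by the widest margin between the rRNA genes, and over centromere 2 the lines part by 1.5-fold or more in 5 of 103 bins.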

How the data were processed

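H3K9ac was measured by ChIP-chip on 1 2-colour Agilent tiling array per strain. Per the labels' protocols, DNA was sheared to 500 to 1000 bp and ChIP DNA carried Cy5 and extract DNA Cy3. Per the file headers, the deposited intensity values are signals processed with Agilent Feature Extraction 10.7.3.1, background-subtracted and dye-normalised. The score columns of the authors' deposited value table were only compared with the arrays: their correlations with the array of the same label were 0.53 (alp13∆), -0.58 (asf1-1) and 0.23 (wild type), and the alp13∆ column followed the asf1-1 array more closely (0.69), so the table was not used and the assignment of arrays to strains rests on the labels.

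Log2 ratios were centred on each array's median. No source used here gives the array's genome build. Probes were placed on ASM294v3 by offsets of 900 and 1800 bp on the left and right segments of chromosome II and 1 bp on the left end of chromosome III, found by scanning 4000 bp each way for the best correlation of GC content with Cy3 signal (r = 0.54, 0.53 and 0.38). Probes not well above background numbered 213 (asf1-1) and 151 (alp13∆), and 0 were saturated. The number of arrays limits the precision. Gene names come from the RefSeq annotation. The genes named are the 10 highest and 10 lowest with at least 10 probes, at least 90% of probes one way and the Cy5 difference past 1.5-fold in the same direction, the list members past 1.5-fold (otherwise the extremes and those next to the median), and the 4 highest and lowest promoters. Members and lists were chosen with earlier results of these data known. Settings tried instead were the centring, Cy5 alone, normexp (limma 3.58.1, offset 50, on median signals as the files hold no mean signals), equal array spread, spot filters, gene medians, probe minimum and fold, each chromosome II segment and the upstream window. The gene summary was tested on simulated data. Python 3.11.15 was used.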

Additional observations from a re-analysis of the deposited data

How the results depend on the processing

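Of 1121 values under 13 alternative settings, 28 changed sign after being past 1.5-fold, all of them with centring on intergenic probes. Under that setting the median promoter difference was -0.14 and 21 promoters were higher; genes numbered 0 higher and 543 lower, with 0 ribosomal protein genes higher; and the rDNA end differed by 0.49. Genes that turned were rpl1001 (-0.17), rps21 (-0.14), rps1002 (-0.12), rps2501 (-0.11), rps1601 (-0.0767), rps902 (-0.0166), mrps17 (-0.15), hht2 (-0.12), sme1 (-0.0645), tsr2 (-0.00633), fib1 (-0.00624), rpt6 (-0.14), tif512 (-0.0889), sdh7 (-0.16), atp7 (-0.10), atp14 (-0.0688), cox7 (-0.0293), gpx1 (-0.14), mug20 (-0.18) and his2 (-0.0555). So did the medians of the histone list (-0.12) and the respiratory list (-0.16), the right end of chromosome II (-0.20) and its inner part (-0.12). The annotated rRNA (-0.0254), the stretch past the last annotated rRNA (-0.15) and the dispersed tRNA surroundings (-0.0255) turned as well. A change of centring shifts all values alike by construction.

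Without centring, 59 genes were higher and 172 lower, 13 ribosomal protein genes and 290 promoters were higher, the promoter median was 0.41 and the rDNA end 1.03. With Cy5 alone, 66 genes were higher and 45 lower, 239 promoters were higher, the promoter median was 0.42, middle minus upstream -0.71, bodies minus intergenic probes -0.57 (main value -0.78) and the rDNA end 1.65. Normexp gave 1.41 for the rDNA end, gene medians gave 122 lower genes, and 2-fold gave 25 and 16 genes. The left segment of chromosome II held 30 of the higher and 27 of the lower genes and the right segment 51 of the lower. In probes of 20 to 25% and 25 to 30% GC, middle minus upstream was -0.81 and -0.87. With probes of 1 place in the reference only, chosen after the data were seen, 139 genes were higher and 77 lower, centromere 2 differed by 0.08, the outermost 20 kb of chromosome II by 0.23 and its inner part by 0.85; the rDNA end had too few such probes for a value. Equal array spread and both spot filters left these counts within 1.5 times of the main ones. Equal array spread moved 12 of 16 region values, among them the outermost 20 kb of chromosome II (0.30) and the central domain of centromere 2 (-0.40), and normexp moved 9. The deposited value table was not run, since its columns did not follow their arrays.

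No paired analysis was possible because each strain has 1 array. Nothing here measures variation between cultures, immunoprecipitations or arrays.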
